A study of Mus musculus with 7 samples.

Results

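The cells described here are T cells that carried UMIs of Zbtb16, the gene of the transcription factor PLZF, in dissociated mouse liver tissue. A barcode was taken when it held at least 500 UMIs and 200 genes, less than 20% mitochondrial UMIs, at least 1 UMI of Cd3d, Cd3e or Cd3g and at least 1 UMI of Zbtb16, and no UMI of Foxp3, Cd8b1 or Ncr1. A UMI is a molecular tag that counts 1 captured transcript. Foxp3 marks regulatory T cells, Cd8b1 CD8 T cells and Ncr1 NK cells. These gates chose 1377 of the 62304 barcodes that passed the quality limits. They are called Zbtb16+ T cells below. The cells were chosen by the measured UMIs of those 7 genes, so the levels of these are given only as a description.

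All mice had received plasmids for Nras and C-myc by hydrodynamic tail vein injection, which puts DNA into hepatocytes and raises liver tumours in place. The 3 control samples got no further plasmid. The 4 treated samples in addition got one that encodes IL-2/CD25, a fusion protein of interleukin-2 and its receptor alpha chain. Liver was taken 2 weeks after injection and measured by droplet single-cell RNA sequencing from the 3' end. The labels give HCC tissue and the same batch value, 3.01, for all 7 samples and do not say that each came from a separate mouse, so p-values measure the spread between these samples only.

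PLZF is the factor that sets the effector programme of natural killer T cells and of other innate-like T cells during their development. Invariant NKT cells carry a nearly fixed T cell receptor alpha chain, see lipids presented by CD1d, settle in the liver through the chemokine receptor CXCR6, and are known for making interferon gamma, interleukin-4 or interleukin-17 quickly. Some gamma delta T cells, mucosal-associated invariant T cells and innate lymphoid precursors also express PLZF.

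The control samples held 23, 17 and 20 Zbtb16+ T cells, 60 in all, and the treated samples 277, 317, 417 and 306, 1317 in all. None of their barcodes was shared between any of the 21 pairs of libraries, while 463 shared barcodes were found among all that passed. The median depth of the Zbtb16+ T cells was 4108 to 4663.5 UMIs per cell in the control samples and 3635 to 4509 in the treated samples. The other CD3+ cells numbered 2219 in the control and 14015 in the treated samples.

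Of the markers attached to the label, Cxcr6 was present in most treated cells and in a minority of control cells. Cxcr6 UMIs were found in 21.7%, 41.2% and 25% of the control Zbtb16+ T cells and in 83.4%, 88.6%, 79.9% and 82.0% of the treated ones. Cd40lg, the CD40 ligand of helper and NKT cells, was found in 4.35%, 5.88% and 10.0% of the control cells and in 35.4%, 36.9%, 34.1% and 23.2% of the treated ones. Trac, the constant part of the T cell receptor alpha chain, was found in 37.8% ± 7.87 (SD, n = 3) and 80.4% ± 1.11 (SD, n = 4). No treated sample overlapped a control sample in any of the 3. The control cells went against the label in this respect, so the cells are named by their gate here.

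B cells, which should lack these genes, gave the background, and neutrophils were also examined. In 3393 treated B cells with Cd79a and Ms4a1 and no CD3 UMI, at a median depth of 2612.5 to 3089 UMIs, Zbtb16 was found in 15 cells (0.442%), Cxcr6 in 1.59%, Cd40lg in 0.0589% and Trac in 3.42%. In 391 control B cells, at a median of 1953 to 2530 UMIs, Zbtb16 was found in 8 (2.05%) and none held Cxcr6, Cd40lg or Trac. Neutrophils with S100a8 and Csf3r and no CD3 UMI ran the other way for Zbtb16, with 3.66% of 1528 treated and 1.12% of 8015 control cells. Of the treated neutrophils 2.16% held Cxcr6, 0.0654% Cd40lg and 2.81% Trac. The Zbtb16 shares in all CD3-negative barcodes were 0.76% to 1.56% in the control and 3.99% to 4.97% in the treated samples, so Zbtb16 UMIs were also found outside T cells.

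Most cells lay next to the gate. Of the control cells 17, 6 and 13 held exactly 1 Zbtb16 UMI, and of the treated cells 161, 195, 259 and 189 did. Treated cells with 1 Zbtb16 UMI held Cxcr6 in 77.6%, 88.2%, 76.8% and 76.2%, whereas CD3+ cells that passed the other gates with no Zbtb16 UMI held it in 34.2%, 38.4%, 37.5% and 32.2%. In the control samples the same shares were 23.5%, 50% and 15.4% just inside and 7.19%, 6.64% and 8.09% just outside.

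The invariant receptor segments gave a readout that the gates had not used. The joining segment Traj18, shown because its presence is the hallmark of invariant NKT cells, lies on the plus strand at chr14:54200777-54200842 of GRCm38 in the T cell receptor alpha locus, in the GENCODE vM21 annotation. Capitals mark the bases that encode the conserved F-G-X-G motif of the joining segment.

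Traj18: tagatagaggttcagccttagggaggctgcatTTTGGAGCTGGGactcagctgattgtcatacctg

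Its partner variable segment exists in several copies. The spliced reference sequences of Trav11 (chr14:53519303-53519859) and Trav11d (chr14:52824357-52824912) were identical over all 342 bases compared. A read within these bases cannot be assigned to either, so UMIs of both were counted together with those of Traj18. How the deposited counts were divided between them was not examined. A UMI of Trav11, Trav11d or Traj18 was found in 29, 28, 24 and 27 treated Zbtb16+ T cells, 108 of 1317 or 8.20%. The share was 1.92% of the 5997 treated CD3+ cells that passed the other gates without Zbtb16, 0.232% of the 3019 with Cd8b1, and 0.0179% of the 11146 Ncr1+ cells without CD3. Of the 60 control cells 0 held one, which allows a share of up to 5.0%.

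Reads from the 3' end seldom reach a variable segment, so the 8.20% counts the cells in which such a read was seen and not all cells with that receptor. The beta chain segments most used by invariant NKT cells were also found, Trbv13-2 in 26 treated cells (1.97%, against 1.27% of the CD3+ cells that passed the other gates without Zbtb16 and 0.935% of the other CD3+ cells) and Trbv29 in 27 (2.05%, against 0.517% and 0.442%). In the third treated sample Trbv13-2 was found in 0.719% of the Zbtb16+ T cells and 0.876% of the other CD3+ cells, so it ran the other way there. Trbv1, another beta chain segment, was found in 5 (0.380%, against 0.428% of the other CD3+ cells), so its share was not higher. Trav1, the variable segment of mucosal-associated invariant T cells, was found in 2 cells (0.152%, against 0.0999%).

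A few large barcodes carried most of the RNA of the control cells. Barcodes over 10000 UMIs or with a single CD3 UMI numbered 22 of 60 in the control samples and held 76.8%, 75.7% and 91.1% of the summed UMIs, against 23.2%, 20.9%, 20.6% and 12.4% in the treated samples. Krt18, a keratin of epithelial cells, stood at 978, 675 and 1218 counts per 1000000 (CPM, summed UMIs of a gene per 1000000 UMIs of the cells summed) in the control cells and at 273, 417, 81.7 and 8.51 CPM in the treated cells. The same barcodes held little Zbtb16: its level was 149 ± 88.7 CPM (SD, n = 3) and 348 ± 35.6 CPM (SD, n = 4) over all control and treated cells and 503 ± 126 and 403 ± 28.4 CPM without them. Without those barcodes Krt18 was 126, 75.7 and 238 CPM against 3.53, 1.54, 4.77 and 0 CPM.

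Results on gene levels are therefore given for all Zbtb16+ T cells and again for a restricted set with at least 2 CD3 UMIs and at most 10000 UMIs, a limit chosen after the data were seen. The restricted set had 14, 11 and 13 control cells with 39606 to 47510 UMIs per sample and 249, 299, 384 and 286 treated cells with 1132646 to 1466884 UMIs. At these depths a control level of 25 CPM is about 1 UMI per sample.

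Genes that mark other cell types were found in both sets, but not all of them are foreign to these cells. The monocyte list holds Ccr2 and the NK list holds Klrb1c. Both were higher in restricted Zbtb16+ T cells than in the other CD3+ cells (log2 difference 0.57 and 0.35). In the restricted cells the summed level of 4 neutrophil markers was 4589, 1490 and 2515 CPM in the control samples and 186, 582, 151 and 175 CPM in the treated samples. The 7 monocyte and macrophage markers summed to 1010, 783 and 542 CPM against 400, 461, 530 and 503 CPM, with 4, 5 and 3 of the 7 detected in the control samples and 6 or 7 in the treated samples. The CD8 markers were at 0 in the control cells and at 6.14 to 10.6 CPM in the treated cells. The 10 NK markers summed to 652, 278 and 238 CPM in the control cells and to 998, 733, 925 and 1318 CPM in the treated cells, and to 1056 to 2338 CPM and 2174 to 4219.9 CPM in the other CD3+ cells. Markers of hepatocytes and B cells ran the other way from those of neutrophils. The 5 hepatocyte markers summed to 14.7, 12.3 and 38.8 CPM in all control and 267, 1658, 3189 and 96.7 CPM in all treated Zbtb16+ T cells, and to 0, 0 and 21.7 CPM against 36.2, 92.1, 318 and 17.7 CPM in the restricted cells, where the groups overlapped. The 6 B cell markers summed to 42.1, 25.2 and 65.0 CPM against 264, 353, 429 and 264 CPM in the restricted cells. How far these moved the comparison of the groups was not tested, beyond an alternative setting that subtracted an estimate of free RNA in all cells.

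Zbtb16+ T cells made up a larger part of the treated livers. They were 0.242%, 0.234% and 0.231% of all barcodes kept in the control samples and 3.82%, 3.61%, 3.99% and 2.95% in the treated samples. The means were 0.236% ± 0.0055 (SD, n = 3) and 3.59% ± 0.460 (SD, n = 4), a 15.3-fold difference (two-sided exact permutation test over 35 splits, p = 0.0286, the smallest this design can give; adjusted over 3 shares, 0.0429). No treated sample overlapped a control sample.

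CD3+ barcodes as a whole were also more numerous, at 1016, 389 and 874 in the control samples and 3142, 3279, 3954 and 4957 in the treated samples. Of these, Zbtb16+ T cells made up 2.26%, 4.37% and 2.29% in the control samples and 8.82%, 9.67%, 10.5% and 6.17% in the treated samples. The groups did not overlap, but this share did not pass the threshold (2.97% ± 1.21, n = 3, against 8.80% ± 1.89, n = 4; exact permutation p = 0.0571, also after adjustment).

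Among CD3+ cells with no UMI of Foxp3, Cd8b1 or Ncr1, the share was 3.20%, 6.23% and 3.26% in the control samples and 20.1%, 18.3%, 19.5% and 14.9% in the treated samples. The means were 4.23% ± 1.73 (SD, n = 3) and 18.2% ± 2.33 (SD, n = 4), which differed (exact permutation p = 0.0286, adjusted 0.0429). A Zbtb16 UMI is easier to find in a deeper cell, and the CD3+ cells without one were deeper in the control samples (median 9075.5 to 16490.0 UMIs against 3337 to 4240.5).

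With every barcode thinned to 2000 UMIs, which left out 6584 of 25444 control and 2961 of 36860 treated barcodes, the 3 shares were 0.138% against 2.35%, 2.92% against 6.30%, and 4.04% against 10.2%. Restricted to the smaller cells with more CD3 UMIs, they were 0.242% against 3.48%, 5.44% against 10.5%, and 9.57% against 20.6%. The treated mean was higher in all 6 of these comparisons. After thinning, however, the groups overlapped in the share of CD3+ cells (1.19% to 5.42% against 4.38% to 8.07%, exact permutation p = 0.0857). Among thinned CD3+ cells past the negative gates they lay close, at 7.10% or less in the control and 7.75% or more in the treated samples. Cell shares from dissociated tissue also depend on how well each cell type came through dissociation, which was not measured.

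**Figure D1:**
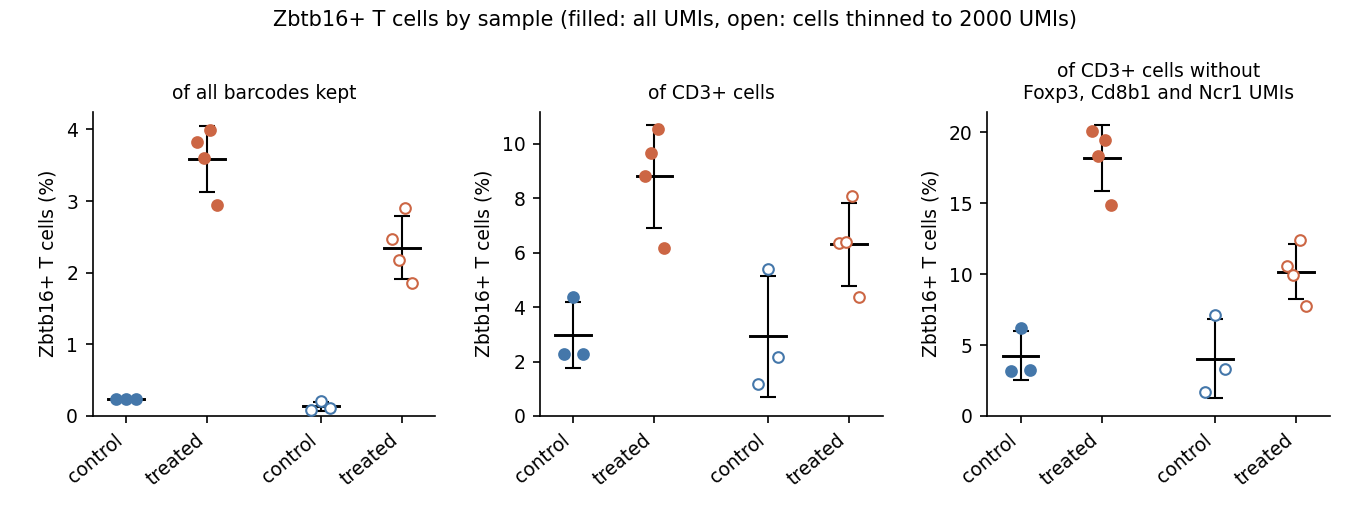
The 3 panels plot the percentage of Zbtb16+ T cells (vertical axis) per sample among all barcodes kept, among CD3+ cells, and among CD3+ cells without Foxp3, Cd8b1 and Ncr1 UMIs, with filled points for all UMIs, open points for barcodes thinned to 2000 UMIs, and bars for the mean and SD. The control samples sit at 0.231% to 0.242% of all barcodes and the treated samples at 2.95% to 3.99%.

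Zbtb16+ T cells were compared with the other CD3+ cells of the same sample, each summed per sample, to show what set them apart from T cells and CD3-bearing NK cells in general. In all cells, 264 of 13995 genes tested were higher in Zbtb16+ T cells (1.89%) and 525 were lower (3.75%; edgeR quasi-likelihood test with sample as a block, Benjamini-Hochberg adjusted p under 0.05). The restricted cells gave 930 of 9975 higher (9.32%) and 1308 lower (13.1%). Adjusted p-values below are those of edgeR in all cells, and CPM are those of the restricted cells. Because the other CD3+ cells include those the negative gates removed, the log2 difference in the restricted cells against CD3+ cells past the same gates is given for each gene described with its values where it was smaller by more than 1.5-fold, and for some others. In that comparison 6.47% of genes were higher and 9.75% lower.

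The label's surface genes stood out. Cxcr6 was at 232, 126 and 195 CPM in the control Zbtb16+ T cells and at 736, 938, 903 and 747 CPM in the treated ones, against 115, 47.7 and 112 CPM and 144, 235, 261 and 144 CPM in the other CD3+ cells. It was higher in Zbtb16+ T cells in each of the 7 samples (log2 difference 2.01 ± 0.19 SE in all cells, adjusted p = 5.8e-05; 1.91 in the restricted cells; 1.29 against cells past the same gates). Cd40lg was at 42.1, 75.7 and 21.7 CPM and at 129, 124, 136 and 85.6 CPM, against 11.5, 2.80 and 15.3 CPM and 18.6, 33.6, 37.1 and 15.1 CPM (2.39 ± 0.22, adjusted p = 6.3e-05; 2.14; 1.13). The gap was narrow in the third control sample and wide in the other 6.

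Transcription factors of innate-like and helper T cells followed. Rora, a nuclear receptor shared by innate lymphoid cells and type 17 cells, was at 358, 379 and 238 CPM in control and 279.6, 293, 288 and 234 CPM in treated Zbtb16+ T cells, against 58.8 to 139 CPM in the other CD3+ cells (log2 difference 1.86 ± 0.13 SE, edgeR adjusted p = 1.1e-05). Its levels in treated and control Zbtb16+ T cells overlapped. Maf, a factor that drives interleukin-4 and interleukin-10, was also higher (1.48 ± 0.25, adjusted p = 0.0078; 1.11 against cells past the same gates). Gata3, the factor of type 2 helper cells and of NKT cell maturation, differed less (0.61 ± 0.15, adjusted p = 0.030; 0.49 in the restricted cells).

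Il4, the signature cytokine of stimulated NKT cells, was at 75.0, 65.3, 50.4 and 80.3 CPM in treated Zbtb16+ T cells and at 7.16, 11.6, 11.7 and 5.70 CPM in the other treated CD3+ cells. In the control samples it was at 42.1, 25.2 and 0 CPM against 1.92, 1.4 and 3.61 CPM, so 1 control sample ran the other way. The log2 difference was 3.06 ± 0.33 SE (edgeR adjusted p = 0.00020; 1.88 against cells past the same gates). Among 12 genes of type 2 function tested in all cells, 5 were higher and 1 lower, with a median log2 difference of 0.26 against -0.09 over all genes. Ccr4, a skin- and lung-homing chemokine receptor of type 2 cells (1.63 ± 0.25, adjusted p = 0.0025), and Il17rb, the receptor for interleukin-25 (1.82 ± 0.47, adjusted p = 0.042), were among the 5.

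Some genes of the interleukin-17 programme were higher. Of 16 tested, 7 were higher, 0 lower and 9 not called in all cells, with a median log2 difference of 1.22, and 13 were higher and 1 lower in the restricted cells, with a median of 2.09 against -0.02 over all genes. Il23r, the interleukin-23 receptor (log2 difference 3.65 ± 0.54 SE, edgeR adjusted p = 0.0025; 2.51 against cells past the same gates), Il1r1, the interleukin-1 receptor (2.61 ± 0.53, 0.014; 2.41), and Blk, a kinase of interleukin-17-producing gamma delta and NKT cells (1.77 ± 0.31, 0.0059), were among those called in all cells. Tmem176b, which encodes a membrane protein, was not called in all cells (0.97 ± 0.38, adjusted p = 0.21). Its restricted level was 396 ± 123 against 54.1 CPM in the control samples and 109 ± 18.4 against 23.5 ± 5.0 CPM in the treated samples (log2 2.19; 1.42 against cells past the same gates).

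The receptor segments were also tested as genes. Trav11, whose spliced reference sequence matches that of Trav11d, was listed at 17.8 CPM in treated Zbtb16+ T cells and 2.0 CPM in the other treated CD3+ cells (log2 difference 3.25 ± 0.45 SE, edgeR adjusted p = 0.0024; 2.04 against cells past the same gates). Of 7 segments tested in all cells 4 were higher and 0 lower.

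Several ligands and receptors of T cell help were higher. Icos, an inducible costimulator, was at 458, 482, 554 and 376 CPM in treated Zbtb16+ T cells and at 242, 198, 263 and 161 CPM in the other treated CD3+ cells (log2 difference 1.42 ± 0.19 SE, edgeR adjusted p = 0.0012). Tnfsf11, which encodes RANK ligand (2.07 ± 0.31, 0.0020; 1.52 against cells past the same gates), and Tnfsf14, which encodes LIGHT (1.36 ± 0.19, 0.0014), were higher, as was Fasl (0.75 ± 0.15, 0.013). Of 23 cytokine and chemokine genes 4 were higher and 3 lower.

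P2rx7, an ATP-gated ion channel of tissue-resident T cells, was at 213, 216, 219 and 170.4 CPM in the treated cells and at 63.1, 50.5 and 86.7 CPM in the control cells, against 32.0 to 55.2 CPM in the other CD3+ cells of all 7 samples (2.03 ± 0.17, edgeR adjusted p = 2.6e-05; 2.01 in the restricted cells; 1.17 against cells past the same gates). Serpina3f, a serine protease inhibitor, had one of the widest gaps (2.58 ± 0.24, 8.0e-05) and was higher in each of the 7 samples. Mgll, a monoacylglycerol lipase, Ramp3, a receptor chaperone, and Septin8, a cytoskeletal protein, were higher by log2 2.35 ± 0.30, 2.15 ± 0.37 and 2.00 ± 0.28 (adjusted p = 0.00080, 0.0050 and 0.0014). Against cells past the same gates the 3 values were 2.06, 1.80 and 1.71. Socs2, a target of STAT5 signalling, was higher (1.26 ± 0.15, 0.00043), while the list of 30 genes of interleukin-2 and STAT5 signalling had 3 higher and 3 lower and a median of -0.04.

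**Figure D2:**
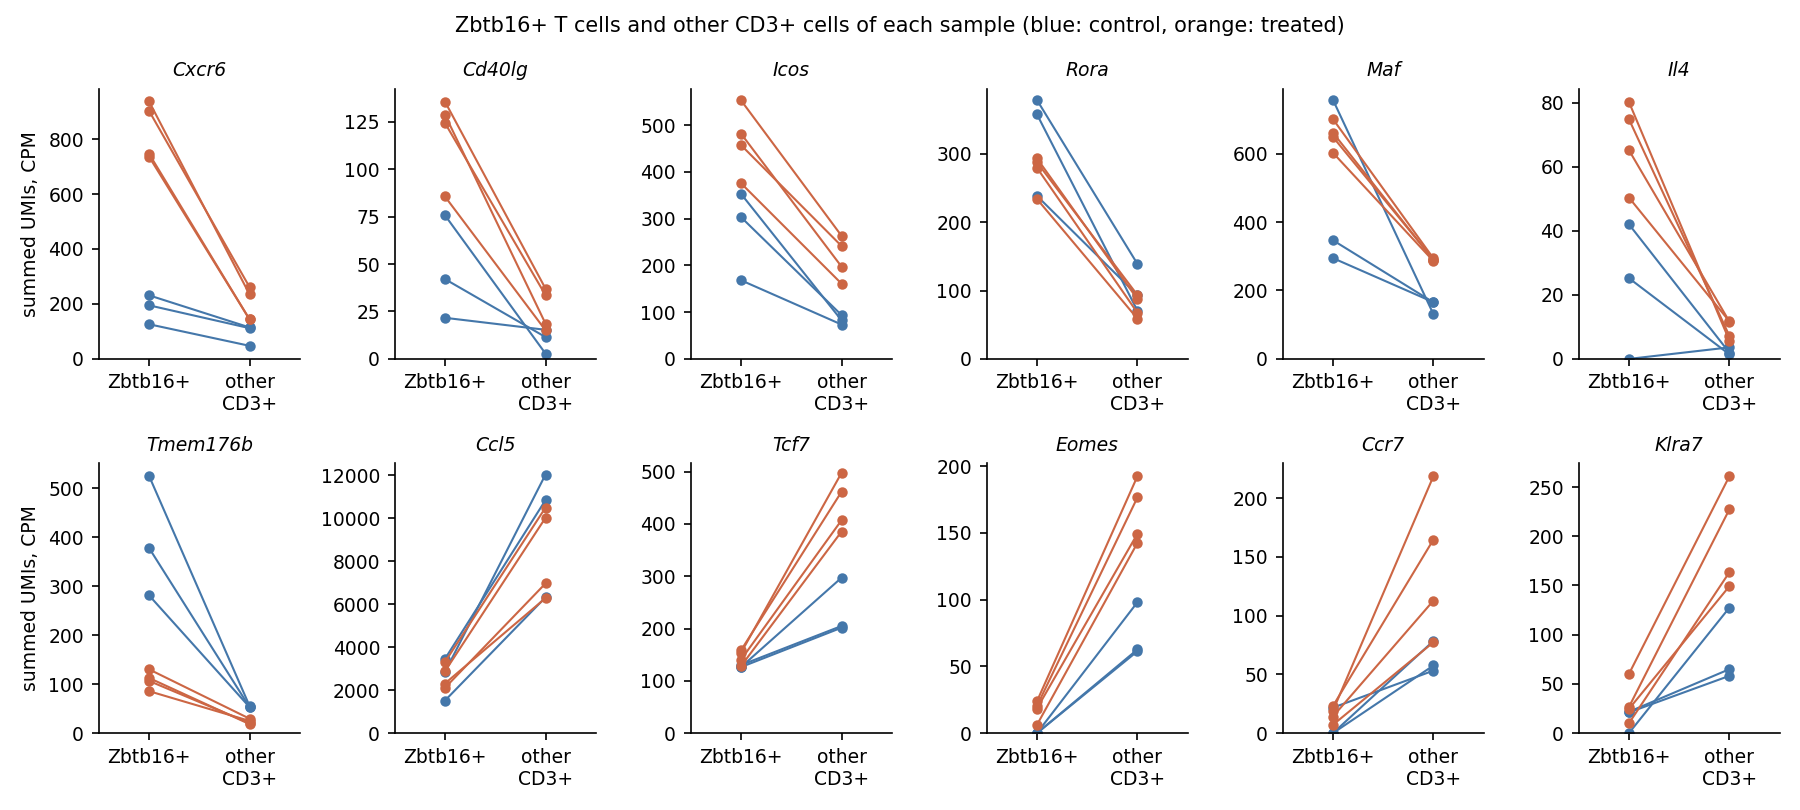
Each line joins Zbtb16+ T cells (left) and other CD3+ cells (right) of 1 sample, blue for control and orange for treated, with summed UMIs in CPM on the vertical axis, in the restricted cells. Cxcr6, Icos, Rora, Maf and Tmem176b fall and Ccl5, Tcf7, Eomes, Ccr7 and Klra7 rise from left to right in each of the 7 samples, and Il4 rises only in the third control sample.

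Many genes of killing were lower. Of 22 cytotoxicity genes 11 were lower and 1 higher in all cells, with a median log2 difference of -0.53. Ccl5, a chemokine of effector CD8 and NK cells, was at 2878, 2109, 2309.7 and 3309.9 CPM in treated Zbtb16+ T cells and at 10019.6, 6965, 6282 and 10492 CPM in the other treated CD3+ cells (-1.65 ± 0.13 SE, edgeR adjusted p = 2.0e-05; -1.60 against cells past the same gates). The groups of cells did not overlap in either condition.

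The granzyme genes differed in how far they depended on the comparison. Gzmm (-4.50 ± 0.37, edgeR adjusted p = 2.1e-05) and Gzmk (-3.95 ± 0.42, 0.00017) were lower by -3.57 and -2.46 against cells past the same gates as well. Gzmb was lower by -1.62 ± 0.23 against all other CD3+ cells but by -0.34 against cells past the same gates, and Prf1, which encodes perforin, by -2.05 ± 0.18 but -0.26 (adjusted p = 0.058), so the call for Prf1 was lost there. Gates on Cd8b1 and Ncr1 remove CD8 T cells and NK cells, whose genes Prf1, Gzmb and Cd8a are.

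Eomes, a factor of CD8 memory and NK cells, was at 0 CPM in the 3 control samples and at 23.8, 6.14, 18.4 and 20.3 CPM in the treated Zbtb16+ T cells, against 61.4 to 98.1 CPM and 143 to 193 CPM in the other CD3+ cells (-3.24 ± 0.25, edgeR adjusted p = 2.0e-05; -2.82 against cells past the same gates). Tbx21, which encodes T-bet and is the related factor of type 1 cells, was not called in all cells (0.32 ± 0.16, adjusted p = 0.28) and was higher by 0.54 in the restricted cells. The inhibitory NK receptors Klra7 (-2.66 ± 0.20, 1.4e-05) and Klra8 (-2.60 ± 0.19, 1.1e-05) were lower, and against cells past the same gates the differences were -2.76 for Klra7 and -0.49 for Klra8 (edgeR adjusted p = 0.015). Of 29 NK receptor genes 14 were lower and 1 higher. Klrb1c, which encodes NK1.1, was not called in all cells (0.28 ± 0.22, 0.55) and was called higher by 0.35 in the restricted cells. Against cells past the same gates it was not called (0.23, edgeR adjusted p = 0.071).

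Some naive and recirculation genes were also lower. Of 20 naive and quiescence genes 4 were lower, 1 higher and 15 not called in all cells, and 13 were lower and 3 higher in the restricted cells. Of 26 residency and egress genes 7 were lower, 2 higher and 17 not called in all cells, and 13 were lower and 8 higher in the restricted cells. Ccr7, the lymph node homing receptor, was at 15.8 against 144 CPM in the treated samples (-3.06 ± 0.20, edgeR adjusted p = 7.4e-06). Tcf7, which encodes TCF-1, was at 140.2, 158, 153 and 128 CPM against 407, 461, 498 and 385 CPM (-1.23 ± 0.18, 0.0020). Of 18 genes of exhaustion and checkpoint function 10 were lower and 0 higher, Lag3 among them (-3.10 ± 0.35, edgeR adjusted p = 0.00029), which was not tested against cells past the same gates. These counts are against all other CD3+ cells, including those the negative gates removed. In the restricted cells the log2 difference of Ctla4 was -2.07 against these and -0.74 against cells past the same gates. For Tox the values were -0.91 and -0.79.

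Of the genes named here for this comparison, 35 were called in all cells, and 25 of these were called in every one of the 24 to 28 alternative settings in which each was tested. Cxcr6, Cd40lg, Il4, Rora, Maf, Icos, P2rx7, Il23r, Eomes, Ccr7 and Gzmm were among the 25. Il17rb, Gata3 and Tnf were not.

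Subsets within the Zbtb16+ T cells were described by UMIs of 14 defining genes or gene pairs. T-bet marks type 1 NKT cells, GATA3 with interleukin-4 marks type 2 cells, and interleukin-17 and the interleukin-23 receptor mark type 17 cells. Tbx21 was found in 4.35% to 20% of the control cells and in 45.0% ± 4.54 (SD, n = 4) of the treated cells. Gata3 was found in 21.5% ± 3.68 (SD, n = 3) and 61.0% ± 2.57 (SD, n = 4), Klrb1c in 32.8% ± 5.45 and 67.2% ± 2.89, and Il4 in 4.86% ± 4.44 and 16.6% ± 2.94. In the 3393 treated B cells Tbx21 was found in 4.36%, Gata3 in 3.24%, Klrb1c in 8.93% and Il4 in 0.0589%, all lower than in the treated Zbtb16+ T cells. In the 391 control B cells the shares were 0.512%, 0.767%, 2.05% and 0%, so this background was also higher in the treated samples. The treated neutrophils held these genes in 5.50%, 4.25%, 11.4% and 0.196%, more often than the treated B cells.

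Of the 14 shares, 10 were higher in the treated cells with no overlap between groups. For each the two-sided exact permutation test gave p = 0.0286, the smallest that 35 splits can give, and an adjusted p of 0.040. Besides those above they included Cxcr6 (29.3% ± 10.4 against 83.5% ± 3.74), Cd40lg (6.74% ± 2.92 against 32.4% ± 6.23), alpha beta receptor genes (73.6% ± 10.2 against 96.2% ± 1.54) and Trdc, the delta chain constant gene (3.63% ± 3.17 against 8.83% ± 2.32). Trdc was found in only 2 of the 60 control cells, and in 0.256% of control and 2.27% of treated B cells. The remaining 4 were not called. Among them, Il17a or Il23r was found in 1.45% of control and 3.15% of treated cells (exact permutation p = 0.30), Il2ra in 31.9% and 36.7% (p = 0.182), and the cycling genes Mki67 or Top2a in 27.2% and 17.4% (p = 0.308).

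With the gated cells thinned to 2000 UMIs, which left out 8 control and 54 treated cells, 9 of the 10 stayed past the threshold, and Cd4 did not (3.92% against 8.74%). In the restricted cells 8 of the 14 had an unadjusted exact permutation p of 0.0286 and none passed the threshold, the smallest adjusted p being 0.05, while Cxcr6 (39.9% against 87.2%), Tbx21 (16.1% against 47.0%) and Gata3 (25.7% against 62.8%) again had no overlap between groups.

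**Figure D3:**
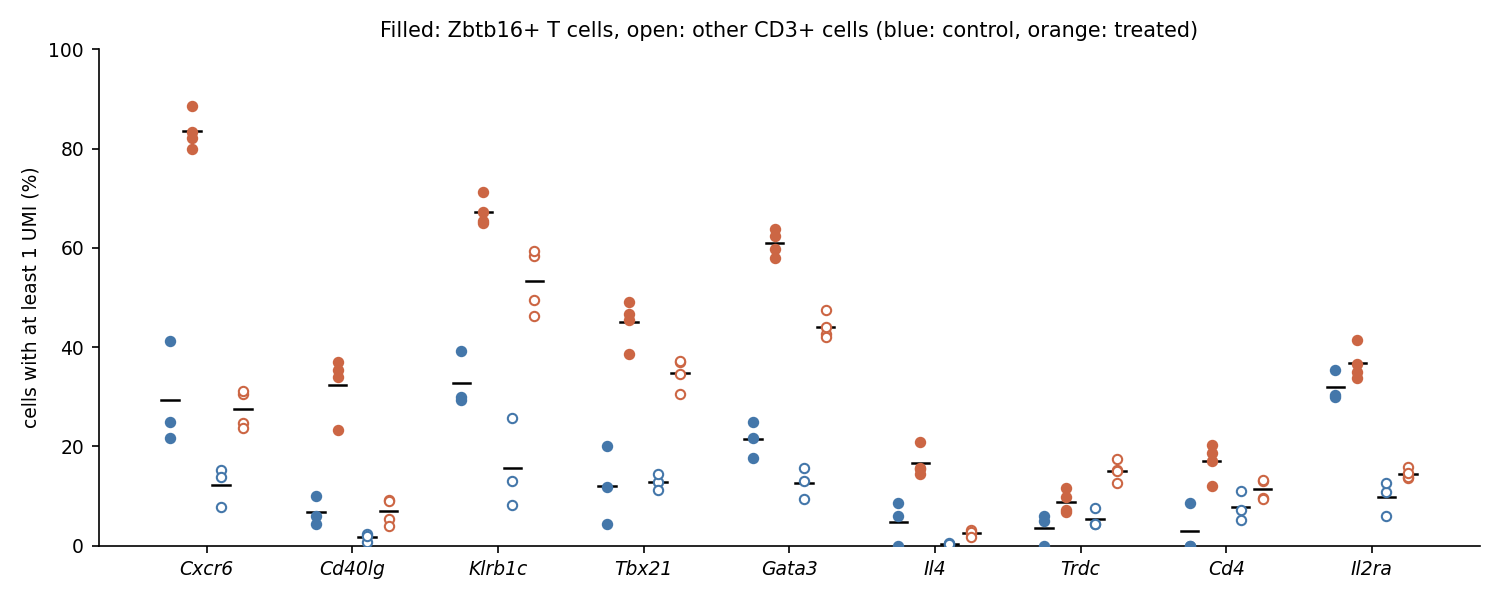
The percentage of cells with at least 1 UMI of each gene (vertical axis) is plotted per sample, filled for Zbtb16+ T cells and open for other CD3+ cells, blue for control and orange for treated, with a dash at each mean. Treated Zbtb16+ T cells stand at 79.9% to 88.6% for Cxcr6, above the other treated CD3+ cells, and near the control cells for Il2ra.

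Type 1 and type 2 factors overlapped in single cells. UMIs of both Tbx21 and Gata3 were found in 81, 102, 122 and 67 treated cells. With few UMIs per factor, a cell without one may still express it.

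The treated cells with Il17a or Il23r UMIs, 6, 11, 14 and 11 per sample, had a different make-up from the rest. These splits use the cells' own genes and are given as descriptions over the 4 treated samples, without a test. Il7r, the interleukin-7 receptor, was at 3413, 2119, 2341 and 2780 CPM with such UMIs and 575, 486, 406 and 692 CPM without, so the 2 sets of cells did not overlap. Blk was at 278 ± 32.9 against 16.1 ± 6.4 CPM (SD, n = 4), Il18r1, an interleukin-18 receptor chain, at 1006 ± 318 against 144 ± 18.9 CPM, and Tmem176b at 488 ± 96.1 against 164 ± 49.7 CPM. Serpinb1a was at 237 ± 94.7 against 30.9 ± 18.9 CPM, and Sdc1, the syndecan-1 gene that marks type 17 NKT cells, at 215 ± 61.1 against 18.9 ± 10.2 CPM. Cxcr6 was at 955 ± 126 against 683 ± 74.2 CPM. The effector genes of type 1 cells were low there. Nkg7 was at 84.0 ± 61.9 against 810.1 ± 83.0 CPM, and Tbx21 at 28.1 ± 19.1 against 140.3 ± 18.5 CPM. Xcl1 and Ifng each had UMIs in the fourth treated sample only, 2 and 1 of them, and Il4 had 0 UMIs in all 4. The median depth of these cells was 4375.5 to 5440 UMIs and that of the rest 3612 to 4493.

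The treated cells with Il4 UMIs, 58, 49, 60 and 48 per sample, held more of genes that respond to receptor stimulation. Egr3, a target of calcium signalling after receptor engagement, was at 196 ± 101 CPM with and 58.9 ± 7.9 CPM without Il4. Nr4a3, an orphan nuclear receptor of the same response, was at 202 ± 36.1 against 93.2 ± 15.1 CPM, and Ifng at 244 ± 71.5 against 144 ± 17.2 CPM. Gata3 differed little, at 264 against 228 CPM. Il13 was at 3.5, 160, 7.8 and 4.5 CPM in the 4 samples, so its mean rests on the second treated sample.

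Gamma delta receptor genes marked a further 27, 37, 28 and 22 treated cells with Trdc UMIs. Trac was lower in them, at 180 ± 88.8 against 646 ± 55.9 CPM, and Trdv4, a delta variable segment, was at 54.1 against 0.9 CPM. Zbtb16 was at 271 against 367 CPM and Cxcr6 at 509 against 734 CPM. Mki67 was at 389, 76.9, 25.7 and 34.3 CPM in these cells and 21.6 ± 1.5 CPM in the rest, with the highest value in the first treated sample.

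The 108 cells with a UMI of Trav11, Trav11d or Traj18 had higher mean Cd40lg and Cxcr6 than the other treated Zbtb16+ T cells. A Trav11 or Trav11d UMI alone does not show the invariant chain, and Traj18 was not counted apart. Cd40lg was at 151 ± 32.4 against 91.2 ± 15 CPM, Cxcr6 at 903 against 676 CPM, Il4 at 82.3 against 53.6 CPM, and Tbx21 at 178 against 133 CPM. Trdc was at 0 in 3 of the 4 samples. Klrb1c, found in 180, 226, 280 and 200 treated cells, went with Xcl1 (324 against 137 CPM) and Prf1 (110 against 46.6 CPM), and its absence with Il7r (878 against 491 CPM).

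**Figure D4:**
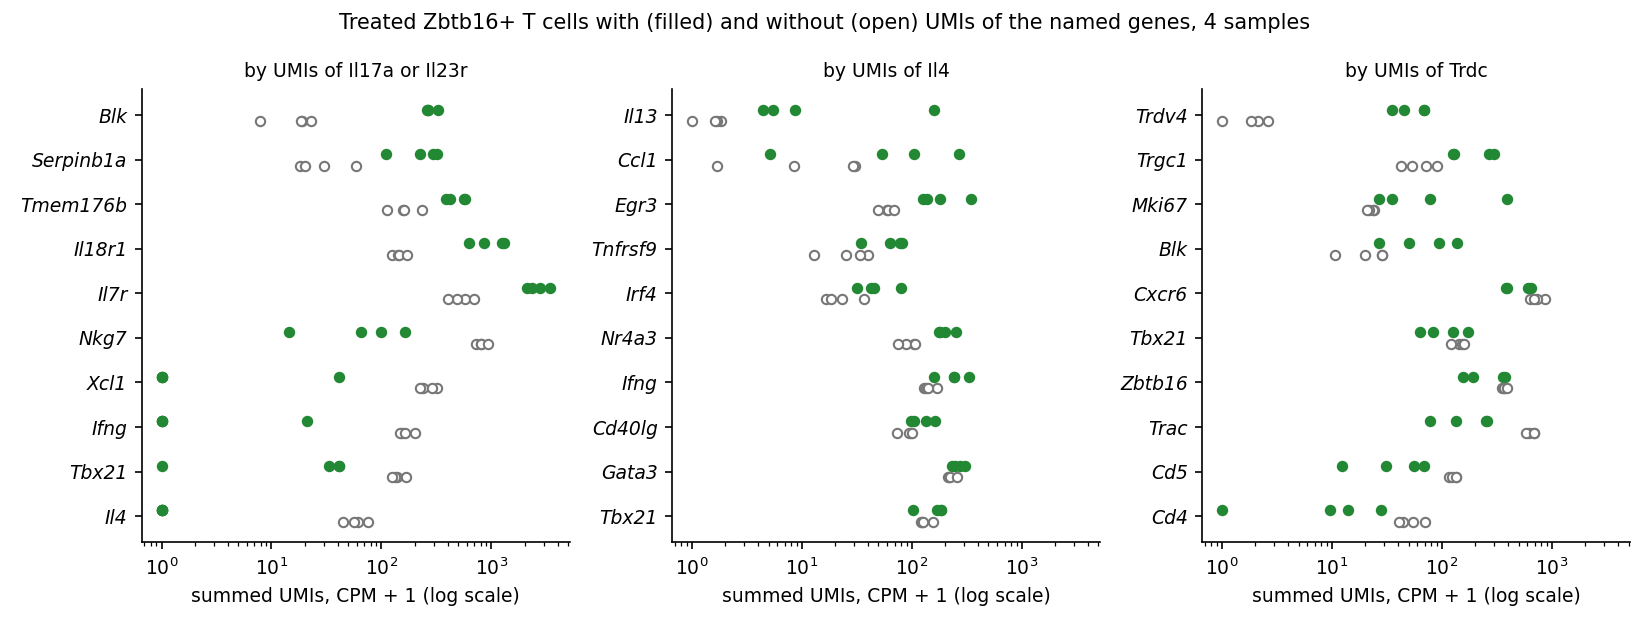
Each point is 1 of the 4 treated samples, filled for Zbtb16+ T cells with and open for those without UMIs of Il17a or Il23r, of Il4, or of Trdc, with summed UMIs in CPM + 1 on a log axis. Blk, Tmem176b and Il7r lie higher and Nkg7, Xcl1, Ifng and Tbx21 lower in the cells with Il17a or Il23r.

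Treated and control Zbtb16+ T cells were then compared gene by gene, over 4 against 3 samples. In all cells 1678 of 10349 genes were higher in the treated cells (16.2%) and 1689 lower (16.3%; edgeR quasi-likelihood test, adjusted p under 0.05). The restricted cells gave 316 of 9035 higher (3.5%) and 144 lower (1.59%), and 238 and 85 of these were called in the same direction in all cells. With RLE scaling the restricted counts were 167 and 198, so the balance of directions there depends on the scaling, by a shift of -0.19 in the median log2 difference over all genes. Of 29 NKT identity genes 23 were higher and 1 lower in all cells, with a median log2 difference of 2.33, and of 28 tested in the restricted cells 13 were higher and 2 lower, with a median of 0.97. The medians over all genes were 0.06 and 0.31. The higher genes described next were called in both sets, and 15 of the 26 named genes called in all cells were called in every one of the 30 alternative settings.

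Cxcr6 was higher in the treated cells. In the restricted cells it was at 232, 126 and 195 CPM in the control samples and at 736, 938, 903 and 747 CPM in the treated samples (log2 difference 2.32 ± 0.26 SE, edgeR adjusted p = 2.42e-15), and in all cells at 44.2 ± 23.5 (SD, n = 3) and 692 ± 73.3 CPM (SD, n = 4; log2 4.02 ± 0.37, adjusted p = 0.00041). No treated sample overlapped a control sample in either set. In the other CD3+ cells of the restricted set it was at 91.4 ± 37.9 and 196 ± 61.1 CPM. Cd40lg was at 42.1, 75.7 and 21.7 CPM against 129, 124, 136 and 85.6 CPM (1.57 ± 0.50, adjusted p = 0.035). That call was lost in 11 settings, among them RLE scaling (adjusted p = 0.11) and each restricted fit without a control sample (0.059 to 0.25).

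Genes of the receptor and of costimulation were higher in the treated cells. Trac was at 316, 202 and 369 CPM in the restricted control cells and at 663, 685, 693 and 711 CPM in the treated cells (log2 1.37 ± 0.24 SE, edgeR adjusted p = 1.53e-06). Cd28 was at 253, 505 and 434 CPM against 716, 745, 853 and 637 CPM (1.08 ± 0.22, 9.2e-05). Cd226, an activating receptor for nectin ligands, was at 243 ± 97.5 against 587 ± 28.1 CPM (1.46 ± 0.25, 1.53e-06). In none of the 3 did a treated sample overlap a control sample. Cd27, a TNF-family receptor, was at 126, 25.2 and 0 CPM against 288, 320.2, 361 and 234 CPM (2.69 ± 0.40, 7.7e-09), and without the second control sample its adjusted p was 0.051.

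Lineage factors of both type 1 and type 2 cells were higher. Gata3 was at 147, 101 and 65.0 CPM in the restricted control cells and at 275, 273, 273 and 265 CPM in the treated cells (log2 1.54 ± 0.34 SE, edgeR adjusted p = 0.00037). Tbx21 was at 21.0, 50.5 and 108 CPM against 171, 159, 192 and 132 CPM (1.61 ± 0.43, 0.0060), a call that was lost in 4 settings. Bcl11b, which keeps T cell identity, was at 167 ± 50.8 against 391 ± 22.2 CPM (1.41 ± 0.29, 8.45e-05), and Id2, a repressor needed by innate-like lymphocytes, at 1031 ± 142 against 1805 ± 192 CPM (0.98 ± 0.18, 4.5e-06). In the other CD3+ cells of the restricted set Gata3 was at 62.6 ± 6.93 and 184 ± 17.8 CPM and Tbx21 at 50.8 ± 2.21 and 106 ± 3.11 CPM.

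The NK receptor gene Klrb1c and the chemokine gene Xcl1 were higher as well. Klrb1c was at 295, 202 and 152 CPM against 479.8, 435, 427 and 411 CPM (1.18 ± 0.26, edgeR adjusted p = 0.00055). Of 24 NK receptor genes tested, 13 were higher and 3 lower in all cells, and 3 were higher and 2 lower in the restricted cells. Xcl1, the ligand of the receptor on cross-presenting dendritic cells, was at 0, 50.5 and 43.4 CPM against 322, 280.3, 263 and 301 CPM (3.44 ± 0.47, 7.8e-11). Ifng was at 0, 202 and 0 CPM against 182, 171, 232 and 168 CPM, so the second control sample lay inside the treated range, and its call was lost in 5 settings. Of 17 genes of type 1 function 16 were higher in all cells and 9 in the restricted cells, none lower, with medians of 2.70 and 1.04 against 0.06 and 0.31 over all genes.

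Genes of adhesion, retention and activation were among those called in every setting. Rgs1, a signalling regulator of tissue-resident lymphocytes, was at 63.1, 227 and 108 CPM against 691, 584, 549 and 475 CPM (2.34 ± 0.30, edgeR adjusted p = 3.2e-12). Itgal and Itgb2, the chains of the integrin LFA-1 that holds NKT cells in liver sinusoids, were at 259 ± 50.2 against 612 ± 52.8 CPM and 117 ± 62.0 against 354 ± 16.7 CPM (1.39 ± 0.25 and 1.73 ± 0.32). Art2b, an ADP-ribosyltransferase that modifies P2rx7, was at 21.0, 0 and 43.4 CPM against 206, 206, 194 and 162 CPM (3.25 ± 0.54, 3.4e-07).

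Egr3 had 0 UMIs in the control cells. In the treated cells it was at 81.7 ± 12.4 CPM (SD, n = 4) in all cells and 83.6 ± 22.1 CPM in the restricted cells, at least 24.0-fold and at least 3.72-fold higher than the 3 UMIs over the control group that a count of 0 allows. Of 24 immediate-early genes 14 were higher and 0 lower in all cells, and 7 higher and 2 lower in the restricted cells. Junb (1.51 ± 0.21, edgeR adjusted p = 4.8e-08) and Nr4a3 (2.66 ± 0.59, 0.00048) were called in both sets.

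Few receptors and targets of interleukin-2 passed the test in the restricted cells. Il2ra, which encodes CD25 itself, was at 238 CPM in the restricted control and 165 CPM in the treated cells (-0.34 ± 0.28, edgeR adjusted p = 0.60), and in all cells its log2 difference was 1.18 ± 0.48 (0.085). UMIs of a plasmid-borne copy cannot be told apart from those of the gene. Il2rb, the shared beta chain, was called in all cells (1.84 ± 0.40, 0.0088) but not in the restricted cells (0.36 ± 0.18, 0.30). Cish (0.92 ± 0.38, 0.17) and Socs2 (0.04 ± 0.28, 0.97) were not called in the restricted cells. Il2rg, the common gamma chain, was called in both sets (1.01 ± 0.28, 0.0087). Of 29 and 27 genes of interleukin-2 and STAT5 signalling tested, 10 were higher and 2 lower in all cells, and 2 higher and 2 lower in the restricted cells.

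Il7r and Bcl2, a survival gene that interleukin-7 sustains, changed direction between the sets. In the restricted cells Il7r was at 1726, 2550.1 and 1691 CPM in the control samples and at 817, 659.6, 594 and 838 CPM in the treated samples (-1.27 ± 0.16, edgeR adjusted p = 5.7e-13). In all cells it was at 449 ± 280.0 against 615 ± 119.8 CPM (0.39 ± 0.41, 0.49). Bcl2 was at 1179, 1060.4 and 867 CPM against 462, 381, 392 and 408 CPM (-1.16 ± 0.18, 1.4e-08), and in all cells was not called (0.28 ± 0.40, 0.62). The other CD3+ cells of the restricted set held Il7r at 798 ± 284 and 703 ± 83.0 CPM. Of 14 type 17 genes 1 was higher and 4 lower in the restricted cells.

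**Figure D5:**
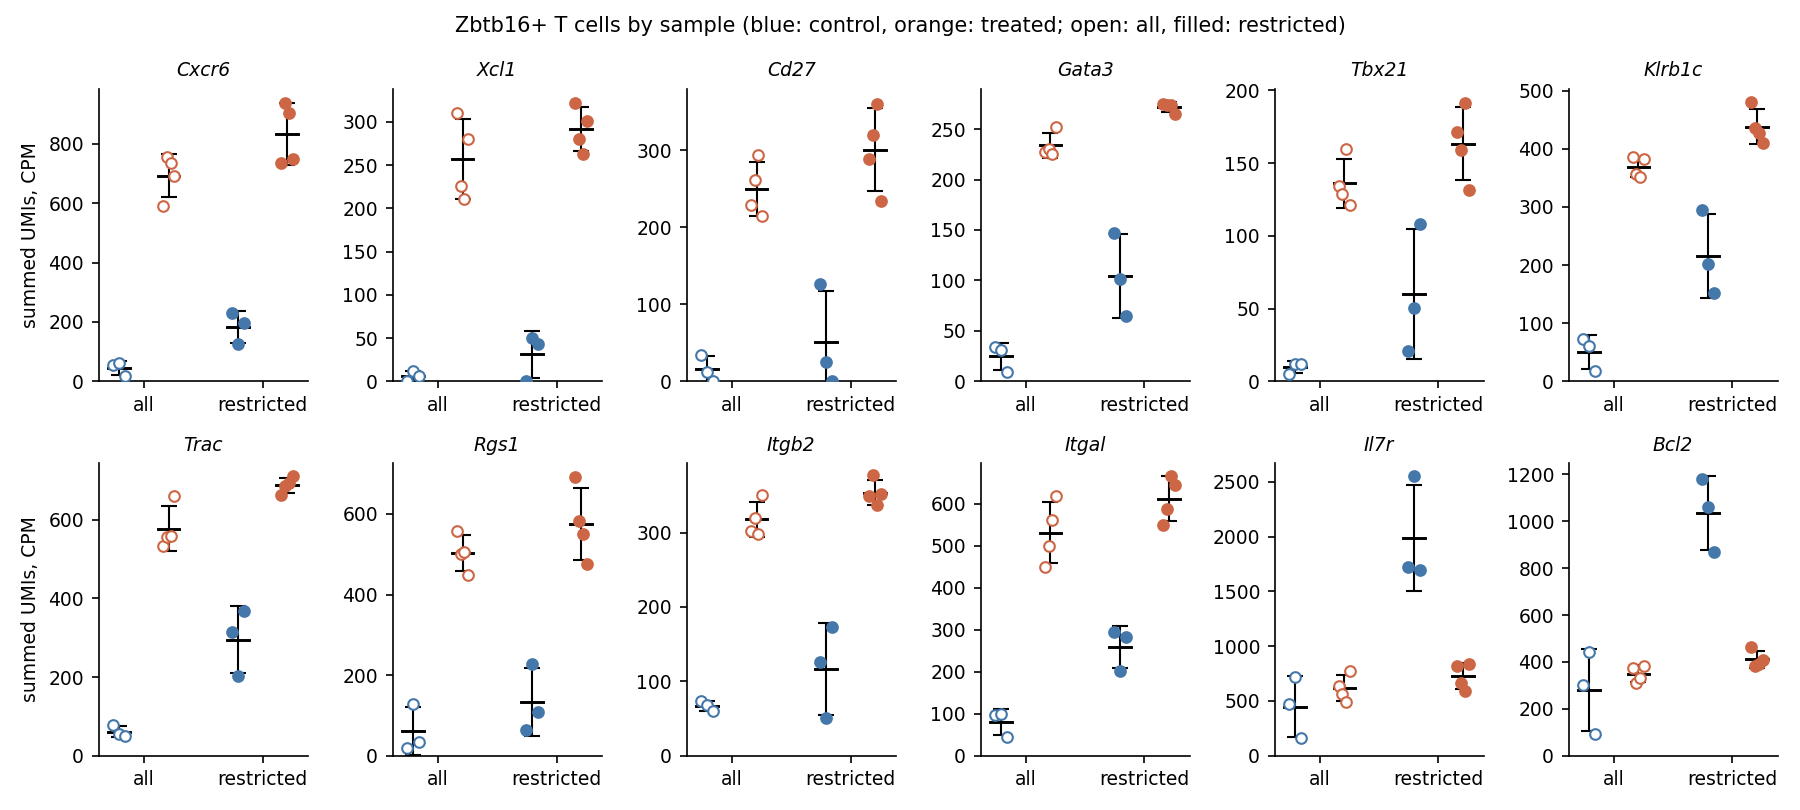
Summed UMIs in CPM (vertical axis, starting at 0) are plotted per sample for 12 genes, blue for control and orange for treated, open for all Zbtb16+ T cells and filled for the restricted cells, with the mean and SD. Cxcr6, Gata3, Klrb1c and Trac are higher in the treated samples in both sets, and Il7r and Bcl2 are lower only in the restricted cells.

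Genes of myeloid and epithelial cells were among those lower in treated Zbtb16+ T cells. Chil3 (-6.30 ± 0.46, edgeR adjusted p = 1.41e-38), Ccl6 (-4.61 ± 0.35, 2.0e-34) and Lgals3 (-4.27 ± 0.32, 5.3e-38), which are made by neutrophils, monocytes or macrophages, were lower in the restricted cells and in all cells as well. In CD3-negative barcodes the larger of the control and treated means was 2730, 2233 and 1587 CPM for these genes. The keratin genes Krt18 (-5.61 ± 0.64, 3.4e-15) and Krt8 (-4.95 ± 0.60, 1.0e-13) were lower in the restricted cells and not called in all cells (-2.42 ± 1.04, edgeR adjusted p = 0.12, and -2.39 ± 1.04, 0.12). Myc, which every mouse received as a plasmid, was at 126, 177 and 86.7 CPM in the restricted control cells. In the restricted treated cells it was at 37.0, 26.1, 25.2 and 21.2 CPM (-2.06 ± 0.47, edgeR adjusted p = 0.00083). The larger of its control and treated means in CD3-negative barcodes was 1003 CPM. Of 28 proliferation genes 14 were lower in all cells, and of 12 tested in the restricted cells none was called. An alternative setting subtracted an estimate of free RNA, in all cells only. Chil3 and Ccl6 were called lower in each of the 30 alternative settings. Beyond that, whether RNA of other cells accounts for these differences was not tested.

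Whether the treated effect in Zbtb16+ T cells differed from that in the other CD3+ cells was tested as an interaction. In all cells it was positive for 730 genes (5.22%) and negative for 189 (1.35%), and in the restricted cells for 337 (3.38%) and 37 (0.371%). With RLE scaling the counts were 145 and 280 in all cells and 103 and 66 in the restricted cells. The median interaction over all genes moved by -0.29 and -0.27 with that scaling, so no direction is read from these counts.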

How the data were processed

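Droplet single-cell libraries (10x 3' v3.1 chemistry, per the labels' protocols) were deposited as raw UMI counts per gene and barcode from Cell Ranger 7.0.0, per the submitters' processing notes. For the genome build and annotation behind these counts, none is named in the labels or file headers used here. Reference coordinates and sequences come from GRCm38 with GENCODE vM21.

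Of 55357 genes, UMIs were summed per sample over the chosen cells. Members and gene lists were chosen with earlier results of these data known. Sums were tested with edgeR 4.0.16 (R 4.3.3), TMM scaling, filterByExpr and quasi-likelihood fits over all genes, and samples needed at least 10 cells. Treated and control sums were compared without covariates, and Zbtb16+ T cells with other CD3+ cells with sample as a block. Shares were compared by two-sided exact permutation with scipy 1.17.1. DESeq2 1.42.0 was an alternative. Called means an adjusted p under 0.05. The fits were checked on simulated counts.

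Genes named by rank were up to 12 per direction (6 for the interaction), at 20 CPM or more, without overlap between treated and control samples, or with the same direction in all 7 samples, by size of change. Gate, mitochondrial, ribosomal, immunoglobulin and unnamed genes and those at 10 times the level or more in CD3-negative barcodes were left out. Any gene of the 16 lists could be named as an example, and a few are not reported here. Log2 differences carry standard errors from the fit. The other alternatives were stricter gates and quality limits, doublet calls removed, thinning, RLE scaling, no low-count filter, free RNA subtracted, the replicate number as a block, and leaving out each sample. Doublets stayed in otherwise. Limits of a count of 0 are 3 counts, and they cover counting error only.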

Additional observations from a re-analysis of the deposited data

Results flagged for a closer look

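The share of treated Zbtb16+ T cells with Il17a or Il23r UMIs had 1 sample apart from the others: 2.17% in the first treated sample and 3.47%, 3.36% and 3.59% in the others. The gap was 0.8338 of the range, just above Dixon's 95% critical value for 4 samples. Of 41 groups of values examined this was the 1 such case, and chance gives about 1 in 20.

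The treated effect in the restricted cells differed between Zbtb16+ T cells and other CD3+ cells for 3 named genes by the edgeR interaction test in both sets of cells. In the restricted cells the interaction was called positive in 3.38% and negative in 0.371% of genes. The log2 interaction was 10.95 for Egr3 and 10.34 for Qdpr, a pteridine reductase gene. Both had 0 UMIs in the restricted control Zbtb16+ T cells, so these 2 values have no interpretable size. It was -2.832 for Klhdc1. The calls were lost in 5 settings for Egr3, 17 for Qdpr and 14 for Klhdc1.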

How the results depend on the processing

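The number of genes called moved with the choice of cells. Of the named genes, 1899 values kept direction and call, 124 lost and 78 gained the call, and 24 reversed, all of them Il7r and Bcl2. From 0.39 and 0.28 in all cells, Il7r and Bcl2 went to -1.27 and -1.16 in the restricted cells, -1.34 and -1.15 with the replicate block there, -1.46 and -1.36 with DESeq2 there, -1.46 and -1.36 with RLE scaling there, -0.78 and -0.75 in gated cells thinned to 2000 UMIs, and to -1.45 to -1.07 and -1.34 to -1.02 there without each sample in turn (0.0037 to 0.93 and -0.14 to 0.81 in all cells). The cause was not tested.

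Treated against control counts, 1678 higher and 1689 lower, became 316 and 144 in the restricted cells, 167 and 198 there with RLE scaling, 90 and 251 with DESeq2, 183 and 72 in cells with Cxcr6 or Trac UMIs, and 423 and 240 after thinning, and 1083 higher with free RNA subtracted. Without each sample in turn they were 1085 to 2096 higher and 870 to 2001 lower, the lowest without control replicate 3, and in the restricted cells 160 to 245 and 65 to 164. Same-numbered control and treated samples did not deviate together (r = -0.16, -0.28 and -0.21), so the numbers do not pair them. With the number as a replicate block the counts were 468 and 397, and 168 and 88 in the restricted cells.

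Against other CD3+ cells, 264 higher and 525 lower became 930 and 1308 in the restricted cells, 993 and 1355 there with RLE scaling, 643 and 969 there against cells past the gates, 599 and 944 with at least 2 CD3 UMIs, 407 and 860 with alpha beta receptor UMIs and no Trdc, and 597 and 1047 after thinning. Higher counts were 551 with DESeq2, 531 with it in the restricted cells, and 150 against cells past the gates. Without each sample they were 109 to 369 higher and 208 to 581 lower, with 109 to 132 and 208 to 248 without treated replicate 1, 3 or 4, and in the restricted cells 664 to 1022 and 1012 to 1370.

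Interaction counts, 730 positive and 189 negative, were 337 and 37 in the restricted cells, 103 and 66 there with RLE scaling, 78 and 57 there with DESeq2, 266 and 450 with DESeq2, 195 and 43 with at least 2 CD3 UMIs, 162 and 56 with alpha beta receptor UMIs, and 306 and 81 without doublet calls. Positive counts were 177 with stricter quality, 145 with RLE scaling, 1411 without the low-count filter, and 1313 with at least 20 cells per sample, which leaves out control replicate 2. Negative counts were 354 against cells past the gates and 37 after thinning. Without each sample they were 278 to 1313 and 78 to 241, and in the restricted cells 211 to 292 and 22 to 37.

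The share differences of 3.36 and 13.9 percentage points, of all barcodes and of CD3+ cells past the gates, were 3.22 to 3.57 and 13.3 to 15.045 without each sample, where no permutation test can pass the threshold. The share of CD3+ cells, 5.83 points, passed it without doublet calls (6.39) and with edgeR on cell numbers (log2 1.70 against 1.57). It also passed in cells with Cxcr6 or Trac UMIs (6.70). That gate was set on the Zbtb16+ T cells only, by genes found in more of the treated ones, so no conclusion is drawn from that pass. Of the subset shares, 10 of 14 passed the exact permutation test in the main setting. With at least 2 CD3 UMIs, with alpha beta receptor UMIs or in the restricted cells 0 passed. With Cxcr6 or Trac UMIs control replicate 2 kept 9 cells and was left out. In that setting, and without any 1 sample, 0 passed, but too few splits remained for any share to pass. Gene tests with at least 2 Zbtb16 UMIs, or gated after thinning, were not run because fewer than 2 control samples kept 10 cells. With 11 to 14 restricted control cells per sample, low genes rest on single UMIs.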
